A study of Mus musculus with 6 samples.

Results

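Imprinted genes of growth domains were examined in muscle nuclei with and without knockdown of Yap. The 10 genes, chosen by symbol, were H19, Igf2, Dlk1, Meg3, Rtl1, Rian, Mirg, Cdkn1c, Peg3 and Grb10. All 10 had a row in the table of 49366 gene windows, which count ATAC-seq fragments within 1 kb to each side of the annotated transcript starts of a gene. In addition, every peak, that is, every stretch of accessible chromatin called from the reads, was taken from 2 stretches of the genome. The H19-Igf2 region, chr7:142540000-142700000 (GRCm38), held 6 peaks and the Dlk1-Meg3 region, chr12:109440000-109760000, held 2, so that 8 of 36097 peaks were included.

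Male C57BL/6J mice aged 8 weeks had received AAV6:Yap-shRNA in the gastrocnemius and tibialis anterior (TA) muscles of one side and the control AAV6:LacZ-shRNA on the other, and muscles were taken 28 days later. Yap is the transcriptional coactivator of the Hippo pathway, and LacZ is a bacterial gene without a mouse target. Nuclei were sorted for PCM1, a protein that surrounds muscle fibre nuclei, and each replicate pooled nuclei of 4 gastrocnemius and 4 TA muscles. There were 3 replicates of each group, all of pooled muscles. A change in the share of nuclei of a kind and a change within each nucleus cannot be told apart.

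An imprinted gene is expressed mainly from the copy of 1 parent, and the choice is set by DNA methylation laid down in the germ line. In the H19-Igf2 domain, the insulator protein CTCF binds the unmethylated maternal control region and keeps enhancers from Igf2, a fetal growth factor, while H19 is a maternal noncoding RNA. In the Dlk1-Meg3 domain, Dlk1 and Rtl1 are expressed from the paternal copy and the noncoding RNAs Meg3, Rian and Mirg, hosts of small nucleolar RNAs and microRNAs, from the maternal copy. Cdkn1c, a cell cycle inhibitor, and Grb10, an adaptor that damps insulin and IGF signalling, restrain growth, and Peg3 is a paternally expressed zinc finger gene. Reads in these tables are not assigned to a parental copy, so each value sums both.

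The sequences below show the stretches to which the peak results refer, all on the plus strand of GRCm38. The first lies in the coding exon of Rtl1, chr12:109594717-109595016, and its capitals mark the first unit of a repeat of 66 bases. The second, chr7:142667743-142668042, lies upstream of Igf2 in a peak that overlaps exons of Gm49394 and Igf2os. Its capitals mark exact matches to the CTCF strings AGGGGGCGC or GGNGGCAG. The third, chr7:142600411-142600710, is taken from the peak with the most counts in both regions. This peak lies in an intron of the noncoding gene Gm33148 between H19 and Igf2. The capitals of the third stretch mark the E-box CAGCTG and the TEAD string ACATTCC on either strand. Unlike the other stretches, it does not include the centre of its peak. It holds 4 E-boxes and 1 TEAD string, and the centre of the peak, at the same length, holds 1 and 0. The third stretch therefore does not stand for the peak as a whole.
Rtl1 exon peak: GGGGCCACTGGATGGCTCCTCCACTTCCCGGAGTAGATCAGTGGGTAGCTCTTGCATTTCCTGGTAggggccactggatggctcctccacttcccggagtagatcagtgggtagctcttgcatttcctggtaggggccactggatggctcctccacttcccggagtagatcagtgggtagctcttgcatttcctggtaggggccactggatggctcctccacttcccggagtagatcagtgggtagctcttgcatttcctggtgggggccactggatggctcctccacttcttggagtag
Igf2 upstream repeat peak: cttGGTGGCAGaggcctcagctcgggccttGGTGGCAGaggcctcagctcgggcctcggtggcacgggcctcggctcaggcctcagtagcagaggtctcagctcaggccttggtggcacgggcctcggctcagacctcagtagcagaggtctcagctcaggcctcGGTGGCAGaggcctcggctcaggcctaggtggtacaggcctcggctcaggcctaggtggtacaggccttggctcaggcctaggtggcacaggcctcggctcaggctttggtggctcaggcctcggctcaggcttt
Gm33148 intron peak: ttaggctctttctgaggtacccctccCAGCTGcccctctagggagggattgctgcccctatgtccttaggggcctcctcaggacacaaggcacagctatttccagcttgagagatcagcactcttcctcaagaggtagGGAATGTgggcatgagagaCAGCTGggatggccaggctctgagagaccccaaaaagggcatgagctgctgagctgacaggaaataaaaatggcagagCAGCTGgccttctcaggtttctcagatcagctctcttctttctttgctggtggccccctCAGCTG

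Window counts totalled between 3326803 and 10319467 per library and peak counts between 2588520 and 6871176, the lowest in both tables being LacZ-shRNA replicate 2. Peak counts per window count ran from 0.704 to 0.778 in the LacZ-shRNA libraries and from 0.649 to 0.688 in the Yap-shRNA libraries. The groups did not overlap in this ratio, and its part in the results was not tested. The Yap1 window differed by 0.04 on the log2 scale (SE 0.18, edgeR quasi-likelihood adjusted p 0.99), which is no check of a hairpin that acts on RNA. Levels are given in CPM, with each library brought to a common depth by TMM factors. Window and peak CPM are each scaled to their own totals, so the same reads give a higher CPM in a peak than in a window. The 8 myonuclear markers had a median of 26.8 CPM per kb of window, against 5.33 for 6 satellite cell, 4.71 for 7 fibro-adipogenic, 6.17 for 6 endothelial and 5.89 for 6 leukocyte markers, beside 4.34 for windows without a peak. The window of Mstn, a myonuclear marker, held 6.74. A peak was present in the window of 4 of the 8 myonuclear, 2 of the 6 satellite cell and 1 of the 7 fibro-adipogenic markers and of 0 of the 6 endothelial and 0 of the 6 leukocyte markers. The summed fibro-adipogenic windows ran from 190.0 to 224 CPM in LacZ-shRNA and from 218 to 262 in Yap-shRNA libraries, with Col1a1, Pi16 and Col3a1 higher at an unadjusted p under 0.05 and Dcn, Pdgfra and Lum at log2 fold changes of -0.26, -0.25 and -0.12. In the other lists Kdr (-0.59), Tie1 (-0.37) and Calcr (-0.37) were lower and Csf1r (0.32) higher at an unadjusted p under 0.05, and no marker of any list passed the adjusted threshold.

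Called peaks were unevenly spread over the 10 genes. Each of H19, Igf2, Cdkn1c, Peg3 and Grb10 had at least 1 peak inside its window, and Dlk1, Meg3, Rtl1, Rian and Mirg, which are the 5 members of the chromosome 12 domain, had none. Over all windows 26.3% held a peak, and 51.8% of the 20540 windows of protein-coding genes did. The H19-Igf2 region carried 6 peaks in 160.0 kb, as many as or more than 93.1% of 14098 gene-holding stretches of that length. The Dlk1-Meg3 region carried 2 in 320.0 kb, where 39.8% of 7953 such stretches held as few or fewer and the median was 3. Peaks covered 8.09% of the first region and 0.447% of the second.

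A missing peak is not proof of closed chromatin in these tables. Of the 480 windows with the highest level per kb, 53 had no peak, among them those of the muscle genes Ckm (61.2 CPM per kb), Tnni2 (55.2) and Tnnt3 (35.9). The last 2 genes lie beside H19. Levels of the windows themselves are therefore given as well.

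Window levels are given as CPM per kb of the part of the window that no other gene's window overlaps. This part was used because fragments in the overlap of several windows appeared not to be counted. In the LacZ-shRNA libraries the H19 window averaged 10.3 CPM and the peak over its start 47.3, each scaled to its own total. Before scaling, the window held 39, 39 and 99 counts and the peak 159, 116 and 334. On this scale, over all 6 libraries, H19 was the highest at 16.5 CPM per kb, above 97.5% of all windows. It rests on an unshared 609 of 3606 bases, the rest being shared with Mir675 and 2 other genes. Cdkn1c followed at 13.2, above 95.3%. Mirg at 8.36 stood just above the median of windows with a peak, 8.15. Peg3 at 7.25, Igf2 at 6.91, Dlk1 at 6.80, Meg3 at 6.72, Rtl1 at 5.87 and Grb10 at 5.40 lay between that median and the one of windows without a peak, 4.34. Rian at 3.63 was the lowest and the only member below it. Cdkn1c, Peg3 and Igf2 share 53.5%, 46.2% and 28.3% of their windows, and these parts do not enter their levels. The peak over the Peg3 start, which also covers Usp29, averaged 144 CPM over the 6 libraries, and the Peg3 window 15.7. The place of these genes beside the unshared Dlk1, Rtl1 and Grb10 therefore holds for the unshared parts only.

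Among windows that held no peak, Mirg stood above 95.4%, Dlk1 above 87.6%, Meg3 above 87.0%, Rtl1 above 78.1% and Rian above 32.1%. Mirg, Rian and Meg3 share 77.6%, 68.5% and 43.4% of their windows with the small RNA and other genes inside them. The length of the whole window includes shared bases, whose fragments appeared not to be counted, which lowers genes with much sharing. Per kb of that length, the order in the LacZ-shRNA libraries was Dlk1, Cdkn1c, Grb10, Rtl1, Igf2, Peg3, Meg3, H19, Mirg and Rian. Levels there ran from 7.23 CPM per kb in Dlk1 to 1.12 in Rian. The ranges of the 3 libraries overlapped between Dlk1 and Cdkn1c, Cdkn1c and Grb10, Grb10 and Rtl1, Peg3 and Meg3, and H19 and Mirg, so these neighbours could not be ordered. The order depended on the length used, with 7 of 10 ranks moving when unshared bases were counted.

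**Figure D1:**
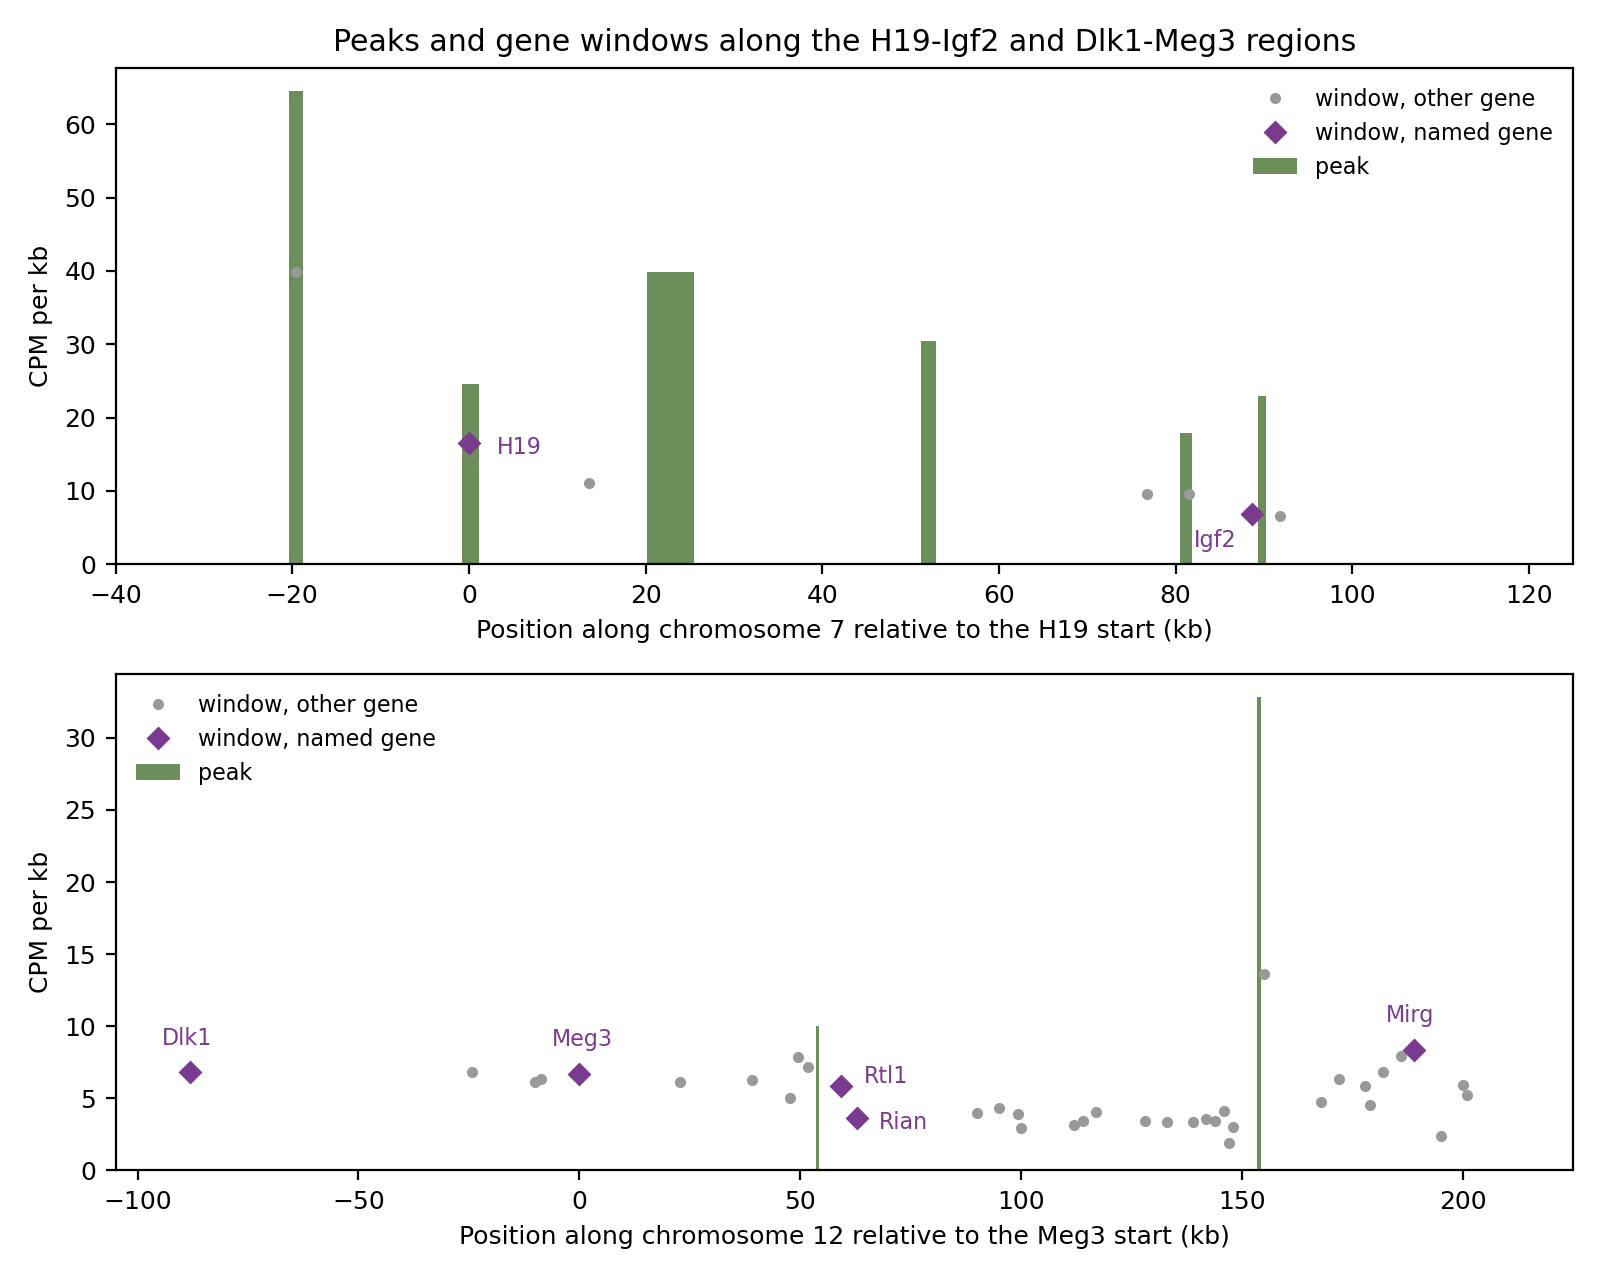
Levels along the H19-Igf2 region (top) and the Dlk1-Meg3 region (bottom), as mean CPM per kb over 6 libraries against distance in kb from the H19 or Meg3 start. Green bars are peaks, drawn at their width with a minimum for visibility, purple diamonds are windows of members and grey points windows of other genes at their 5′ ends. Peak and window values are scaled to different totals, so bars and points are not on a common scale. The 6 peaks of the top panel lie between 17.9 and 64.5 CPM per kb, and the 5 members of the bottom panel lie between 3.63 and 8.36 with no peak in their windows.

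**Figure D2:**
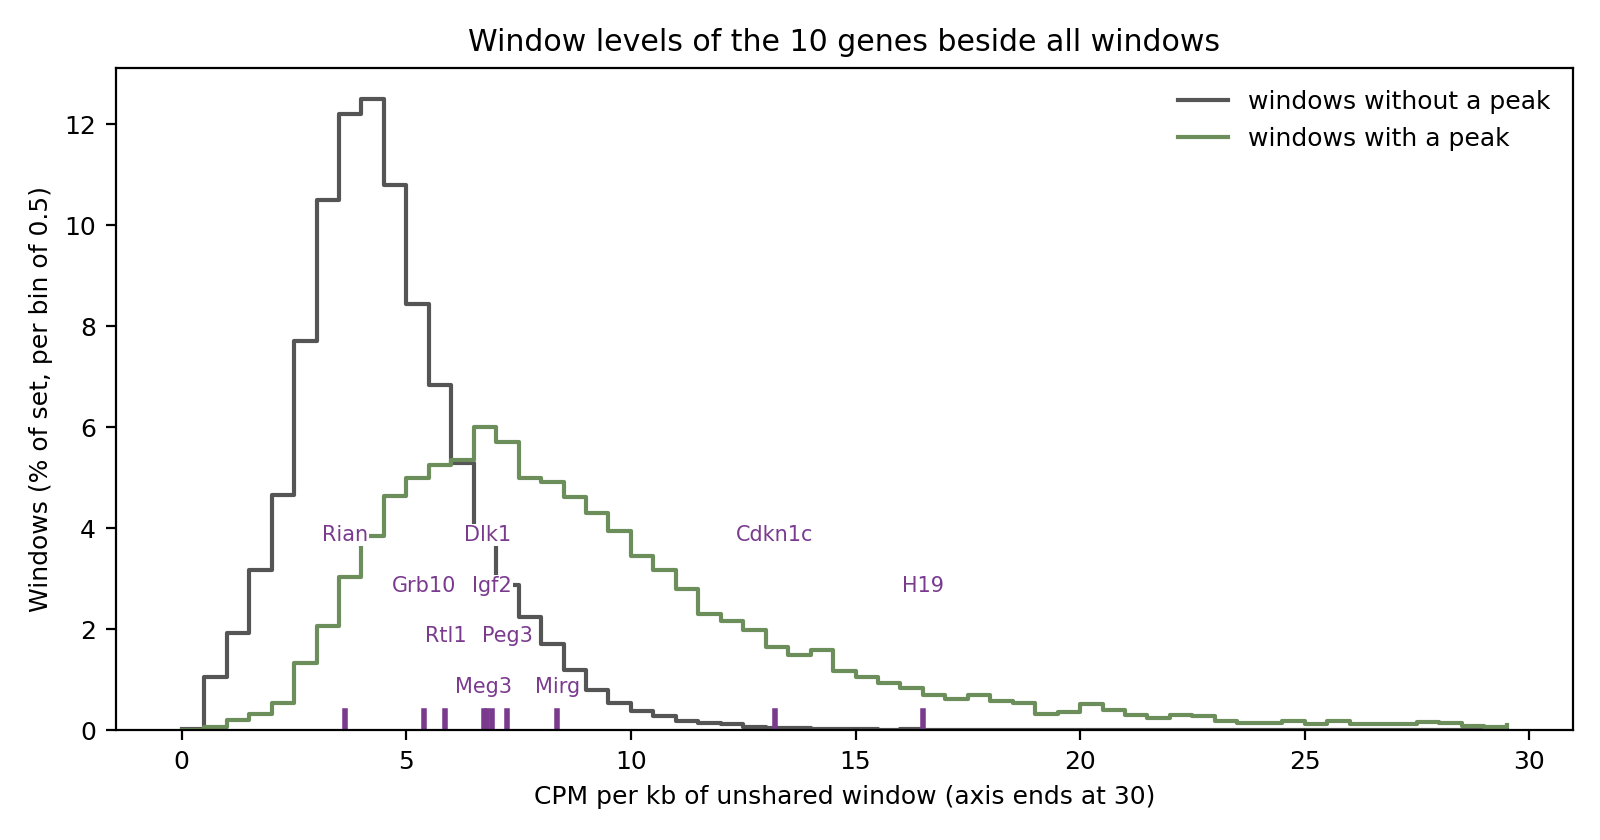
Distribution of window levels (CPM per kb of unshared window) for windows without a peak (grey) and with a peak (green), as percent of each set per bin of 0.5, with ticks and names at the 10 members. H19 (16.5) and Cdkn1c (13.2) stand to the right, and Rian (3.63) lies below the median of windows without a peak (4.34).

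Along the H19-Igf2 region, the H19 start (gene at chr7:142575529-142578143, minus strand) lay in a peak of 1971 bases, chr7:142577326-142579296. It held 43.5, 49.3 and 49.2 CPM in the LacZ-shRNA libraries and 48.7, 49.2 and 51.4 CPM in the Yap-shRNA libraries. The groups overlapped, with means of 47.3 ± 3.29 and 49.8 ± 1.48 (SD, n = 3 each), and the log2 fold change was 0.071 (95% interval -0.18 to 0.32, edgeR adjusted p 0.943). From its end the peak table held nothing over 18.9 kb toward Igf2, the side on which the imprinting control region lies. The microRNA miR-675, cut from H19, is encoded beside this peak and not inside it.

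The peak with the most counts in both regions was chr7:142598215-142603571, 5357 bases wide in an intron of Gm33148. Its LacZ-shRNA libraries held 203, 227 and 223 CPM and its Yap-shRNA libraries 224, 202 and 203. The log2 fold change was -0.053 (95% interval -0.34 to 0.24), and the 2 groups overlapped. By count it exceeded 99.7% of all peaks and, per kb, 95.5%. The peak at the start of Nctc1, a noncoding gene on the other side of H19, was the densest of the 8 at 64.5 CPM per kb, above 99.3% of all peaks. Nctc1 read 94.5, 110.0 and 118 CPM with LacZ-shRNA and 97.0, 94.9 and 105 CPM with Yap-shRNA, which overlapped.

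A peak with no gene under it lay between H19 and Igf2, chr7:142629278-142630986. It held 46.8, 60.7 and 49.9 CPM and then 52.7, 56.3 and 46.5 CPM in the LacZ-shRNA and Yap-shRNA libraries. The difference was 0.002 on the log2 scale (95% interval -0.25 to 0.26), the smallest of the 8 peaks.

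Igf2 (gene at chr7:142650766-142666816, minus strand) has 9 annotated starts, and 2 peaks touch its window. The first, chr7:142658661-142660049, covers inner starts of Igf2 and the start of its antisense gene Igf2os, so its counts cannot be assigned to either. It had the highest GC content of the 8 peaks, 69.7%, and a CpG observed-to-expected ratio of 0.788 against a median of 0.295 over all peaks. Its values were 21.4, 29.7 and 29.2 CPM with LacZ-shRNA and 19.7, 27.0 and 22.5 CPM with Yap-shRNA, overlapping, with a log2 fold change of -0.21 (95% interval -0.53 to 0.10, adjusted p 0.773). The second, chr7:142667438-142668349, begins 622 bases upstream of the outermost Igf2 start and is the repeat printed above. It held 23.8, 22.9 and 17.1 CPM against 20.0, 22.1 and 20.2 CPM, and the log2 fold change was 0.006 (95% interval -0.32 to 0.33).

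In the Dlk1-Meg3 region no peak was present from 15805 bases before the Dlk1 start to the Rtl1 exon, a gap of 157595 bases that holds Dlk1 and Meg3 and the control region between them. The stretches before the starts of Dlk1 and Meg3, the paternal and maternal genes at the head of the domain, are printed for their CpG content. They are the 250 bases before the start from RefSeq (GRCm38.p6) at chr12:109452573-109452822 and chr12:109540746-109540995, plus strand, with CpG in capitals.
Dlk1: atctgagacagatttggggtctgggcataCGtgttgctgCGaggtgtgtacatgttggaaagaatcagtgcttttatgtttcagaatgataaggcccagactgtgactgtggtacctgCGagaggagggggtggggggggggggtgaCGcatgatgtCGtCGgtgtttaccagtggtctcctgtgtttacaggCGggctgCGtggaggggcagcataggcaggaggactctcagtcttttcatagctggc
Meg3: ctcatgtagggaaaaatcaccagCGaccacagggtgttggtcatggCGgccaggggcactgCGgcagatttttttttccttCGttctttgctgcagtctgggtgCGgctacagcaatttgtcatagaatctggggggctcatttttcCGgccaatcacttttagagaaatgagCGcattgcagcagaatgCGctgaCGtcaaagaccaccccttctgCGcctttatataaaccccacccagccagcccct

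Over these 250 bases Dlk1 had 8 and Meg3 10 CpG. With the 50 bases after the start, the counts were 9 and 13, against a median of 7 over 32851 promoters. Meg3 also held TATAAA in the 60 bases before its start, as 2.87% of promoters did, and 1 match to TGCCGC, the core string of the imprint-protecting zinc finger protein ZFP57, as 11.6% did. In all, 7 members matched 12 promoter entries, and CpG counts ranged from 0 at Rian to 45 at one Grb10 start.

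The 2 peaks of the Dlk1-Meg3 region were both lower with Yap-shRNA in every library, and neither passed the adjusted threshold. The Rtl1 exon peak, chr12:109594614-109595121, held 7.39, 5.94 and 5.45 CPM in the LacZ-shRNA libraries and 4.17, 2.36 and 5.13 CPM in the Yap-shRNA libraries. All 3 Yap-shRNA values lay under all 3 LacZ-shRNA values, with means of 3.89 ± 1.4 and 6.26 ± 1.01 (SD, n = 3 each). The log2 fold change was -0.69 (SE 0.34, edgeR unadjusted p 0.0492, adjusted p 0.558). It rested on 14 to 37 counts per library. Each base of its centre matched the base 66 further on in 98.7% of positions, and 8.22% of 35980 peaks had a match of at least 80% at some distance from 10 to 150 bases. For peaks, how reads that match several copies of a repeat were counted is not given in the sources used here, and its part in the values was not tested.

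The other peak, chr12:109694692-109695612, covers the start of the long noncoding RNA B830012L14Rik between Rian and Mirg. It held 34.5, 34.8 and 31.1 CPM with LacZ-shRNA and 29.8, 28.2 and 22.7 CPM with Yap-shRNA. The groups did not overlap, with means of 33.5 ± 2.07 and 26.9 ± 3.75 (SD, n = 3 each), and the log2 fold change was -0.30 (SE 0.14, unadjusted p 0.0409, edgeR adjusted p 0.533). The window of the same gene, which overlaps this peak, held 28.6, 34.0 and 27.8 CPM and then 25.8, 24.0 and 23.4 CPM. Summed over both peaks, the region gave 41.9, 40.8 and 36.5 CPM against 34.0, 30.6 and 27.8 CPM, most of it from the B830012L14Rik peak. The 46 gene windows of the region summed to 383, 352 and 348 CPM with LacZ-shRNA. With Yap-shRNA they summed to 337, 361 and 345 CPM, and these groups overlapped.

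The Rtl1 exon peak contains the gene of miR-432, which is transcribed from the strand opposite to Rtl1. Its mature form, from RefSeq, is shown with the seed (bases 2 to 8) in capitals, because its first bases are the last ones of the stretch printed above. The chromosome 12 region holds 57 microRNA hairpins in that table.
mmu-miR-432: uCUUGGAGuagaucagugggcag

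**Figure D3:**
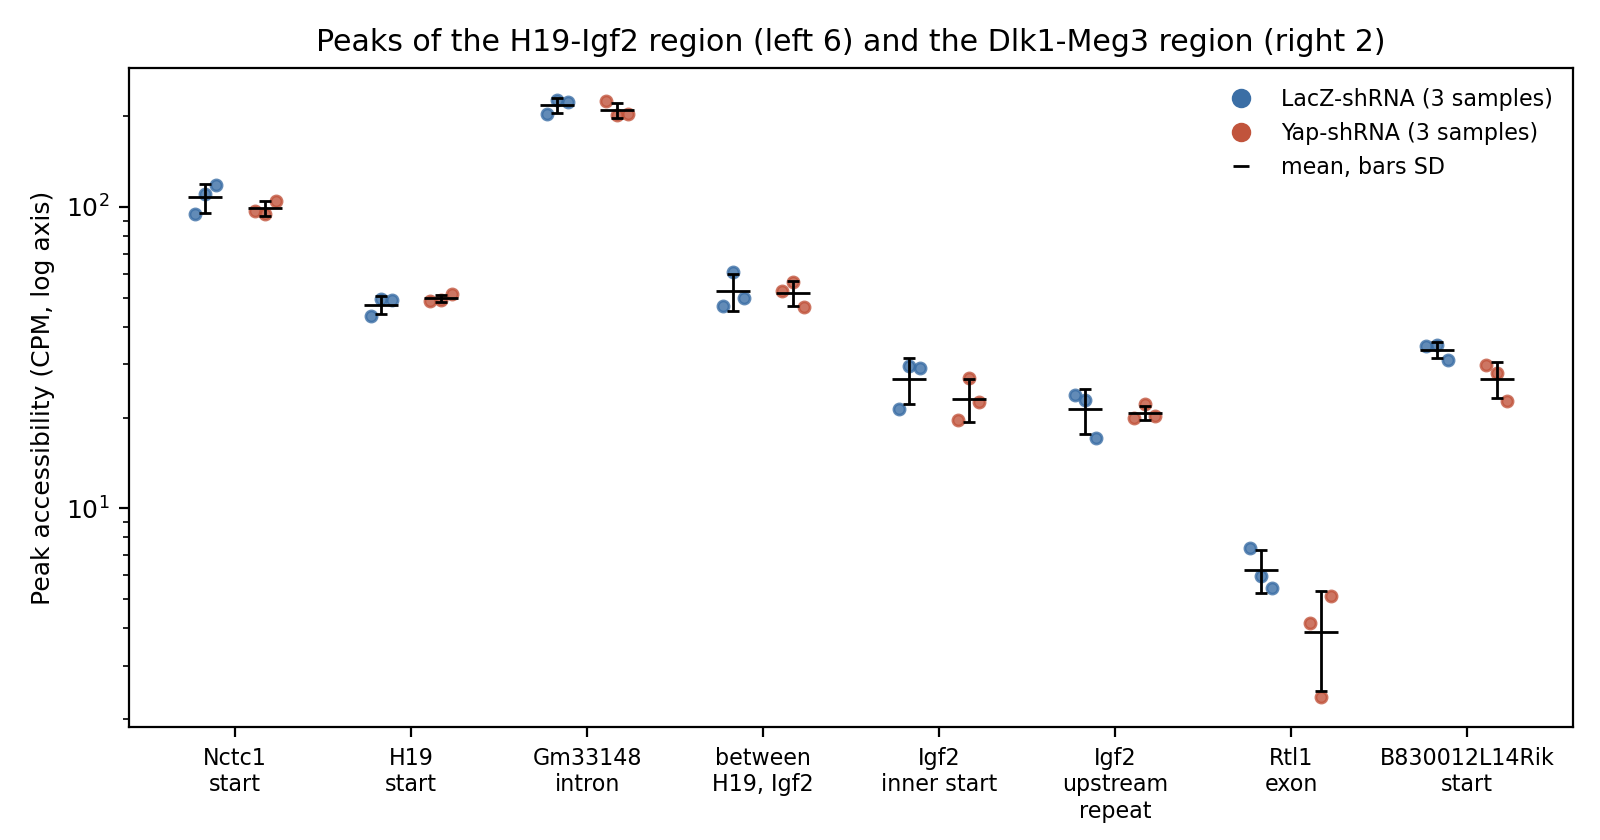
CPM of the 8 peaks on a log axis, with 1 point per library, blue for LacZ-shRNA and red for Yap-shRNA, and bars giving mean and SD of 3 libraries. Groups overlap at the 6 peaks of the H19-Igf2 region and stand apart, Yap-shRNA lower, at both peaks of the Dlk1-Meg3 region.

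Across all peaks, 223 of 36097 passed an adjusted p of 0.05 (0.618%), 17 higher and 206 lower, and none of the 8 did. Scaling by library size alone moved that split to 124 higher and 105 lower and the median of all peaks to 0.137. The 2 peaks whose groups stood apart compare with 13.3% of all peaks in either direction and 6.76% with Yap-shRNA lower, and at an unadjusted p under 0.05 the 2 of 8 compare with 8.90%. Both missed an unadjusted p of 0.05 with library size alone (0.0975 for the Rtl1 exon peak and 0.315 for the B830012L14Rik peak) and with DESeq2 (0.0697 and 0.0826). Both also missed it without LacZ-shRNA replicate 1 (0.118 and 0.0882), LacZ-shRNA replicate 2 (0.0591 and 0.0814) or Yap-shRNA replicate 2 (0.283 and 0.0549). Of the 8 peaks, 5 had a negative and 3 a positive log2 fold change, with a median of -0.087 against -0.003 over all peaks. The 6 peaks on chromosome 7 summed to 433, 499 and 486 CPM and then 462, 451 and 448 CPM, which overlapped.

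Exact strings for factors of imprinting, of muscle and of the Yap pathway were counted on both strands. CTCF strings were present in 5 of the 8 peaks and in 31.0% of 35982 peaks with sequence, E-boxes in 5 and 40.3%, the TEAD string in 3 and 8.96%, MEF2 strings in 2 and 12.3%, and the ZFP57 string in 0 and 24.0%. The widest peak, in Gm33148, held 10 of the 16 E-boxes and 3 of the 4 MEF2 strings. The repeat upstream of Igf2 held 5 of the 9 CTCF strings. The TEAD matches lay in the H19 peak, the Gm33148 peak and the peak between H19 and Igf2, whose log2 fold changes were 0.071, -0.053 and 0.002. The 8 peaks had a median width of 1494 bases against 902 over all peaks, and a wider peak has more room for a match. Per kb of peak, there were 0.626 CTCF, 1.11 E-box and 0.209 TEAD matches against 0.503, 0.642 and 0.0958 over all peaks. For MEF2 and ZFP57 there were 0.278 and 0.0 per kb against 0.154 and 0.366. The part of width in the shares was not tested. In the central 300 bases, CTCF strings and E-boxes were each present in 1 of the 8 peaks and the TEAD, MEF2 and ZFP57 strings in 0.

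At the windows, none of the 10 members passed the threshold, and 11 of 49366 windows did (0.0223%), 1 higher and 10 lower. Adjusted p-values of the members were between 0.949 and 0.99. Of the 10, 4 log2 fold changes were positive and 6 negative, with a median of -0.07 against -0.014 over all windows. None of the members reached an unadjusted p under 0.05, as 4.90% of all windows did.

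Igf2 held 53.2, 60.6 and 58.9 CPM in the LacZ-shRNA and 57.2, 56.3 and 66.1 CPM in the Yap-shRNA libraries. Its log2 fold change was 0.059 (95% interval -0.21 to 0.33) with overlapping groups. H19 held 7.06, 12.5 and 11.3 CPM and then 8.15, 9.50 and 11.8 CPM, with overlapping groups and a difference of -0.052 (95% interval -0.48 to 0.37) that turned to 0.01 with scaling by library size alone. For Igf2 and H19 alike the intervals reach no further than a change of 0.48 on the log2 scale.

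Dlk1, a membrane protein related to Notch ligands, held 39.4, 34.3 and 42.8 CPM with LacZ-shRNA and 31.8, 37.4 and 33.5 CPM with Yap-shRNA. The groups overlapped and the log2 fold change was -0.20 (95% interval -0.48 to 0.081, unadjusted p 0.158). Meg3 held 37.1, 32.4 and 33.9 CPM against 33.2, 38.9 and 36.9 CPM, a log2 fold change of 0.071 (95% interval -0.21 to 0.35). Rtl1, a gene derived from a retrotransposon, was the single member whose groups did not overlap. Its window held 11.6, 10.3 and 10.6 CPM with LacZ-shRNA and 12.9, 11.7 and 13.3 CPM with Yap-shRNA, higher in all 3. The log2 fold change of 0.22 (95% interval -0.14 to 0.59, unadjusted p 0.227) did not pass, while 10.1% of all windows had groups that did not overlap and 5.31% had groups apart with Yap-shRNA higher. The Rtl1 window surrounds its annotated start, chr12:109600330, and does not include the exon peak that read lower.

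The noncoding Rian held 27.9, 17.6 and 21.2 CPM and then 22.3, 23.7 and 23.5 CPM. Its log2 fold change was 0.041 (95% interval -0.28 to 0.36), and the LacZ-shRNA values enclosed the others. Mirg, the microRNA host at the far end, held 25.7, 21.5 and 20.2 CPM against 22.7, 17.6 and 19.7 CPM, a log2 fold change of -0.16 (95% interval -0.48 to 0.16).

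Grb10 (chr11:11930508-12038683) held 79.6, 79.5 and 93.2 CPM with LacZ-shRNA and 74.2, 78.1 and 79.5 CPM with Yap-shRNA, the most counts of the 10 windows. The groups met at 79.5, and the log2 fold change was -0.13 (95% interval -0.40 to 0.14). Cdkn1c (chr7:143458339-143461050) held 20.8, 21.8 and 27.7 CPM against 20.3, 23.3 and 23.4 CPM and differed by -0.094 (95% interval -0.40 to 0.22). Peg3 (chr7:6703892-6730431) held 16.3, 17.6 and 14.8 CPM against 16.5, 13.8 and 15.0 CPM and differed by -0.088 (95% interval -0.43 to 0.25).

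**Figure D4:**
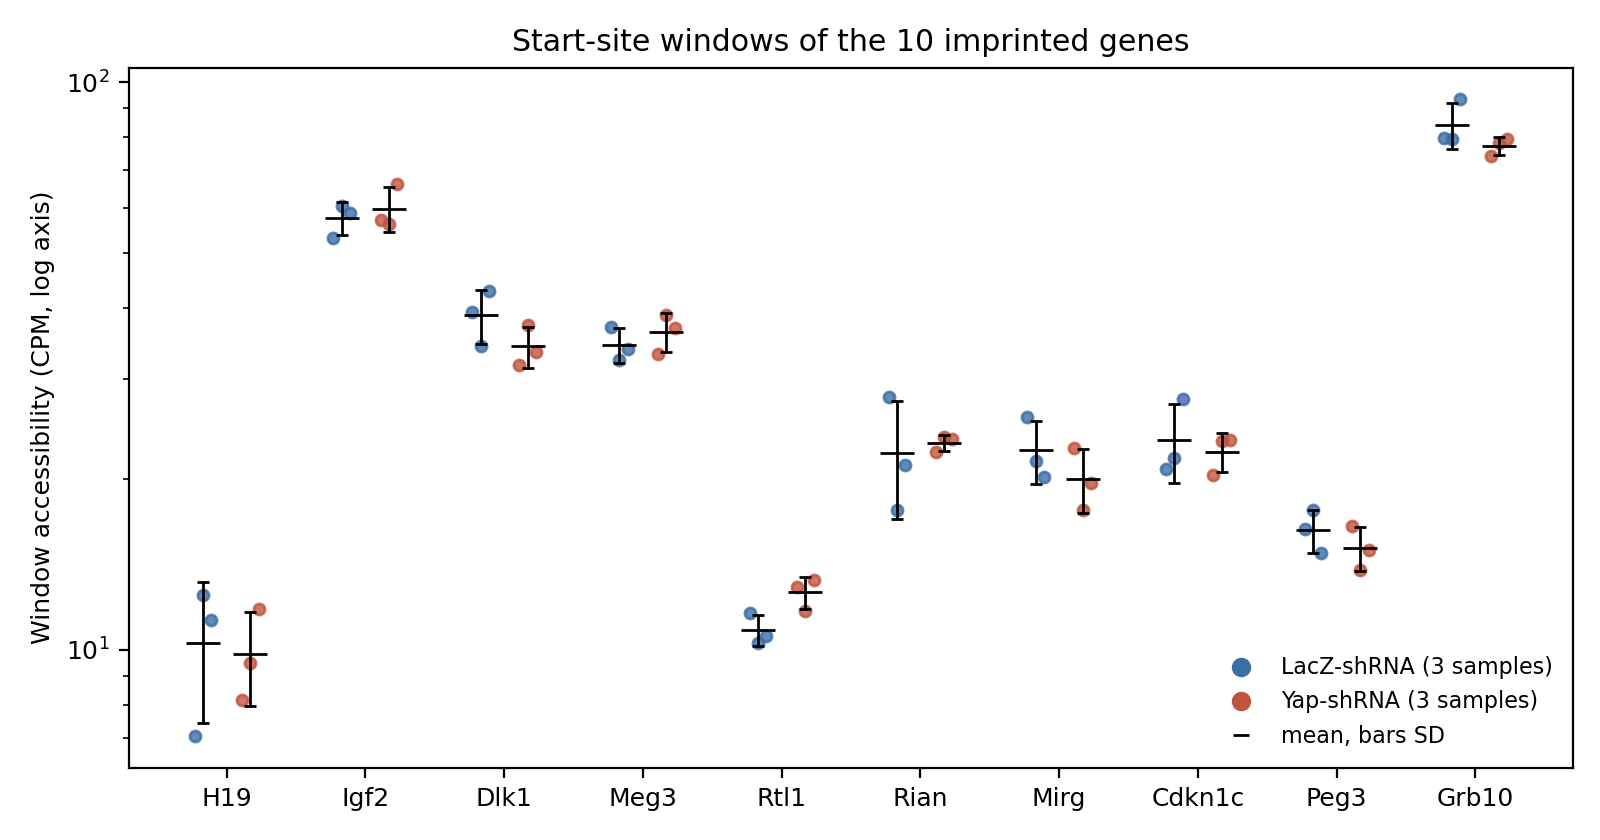
CPM in the start-site windows of the 10 members on a log axis, with 1 point per library, blue for LacZ-shRNA and red for Yap-shRNA, and bars giving mean and SD of 3 libraries. The groups overlap at 9 genes, and at Rtl1 the Yap-shRNA values (11.7 to 13.3) lie above the LacZ-shRNA values (10.3 to 11.6).

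**Figure D5:**
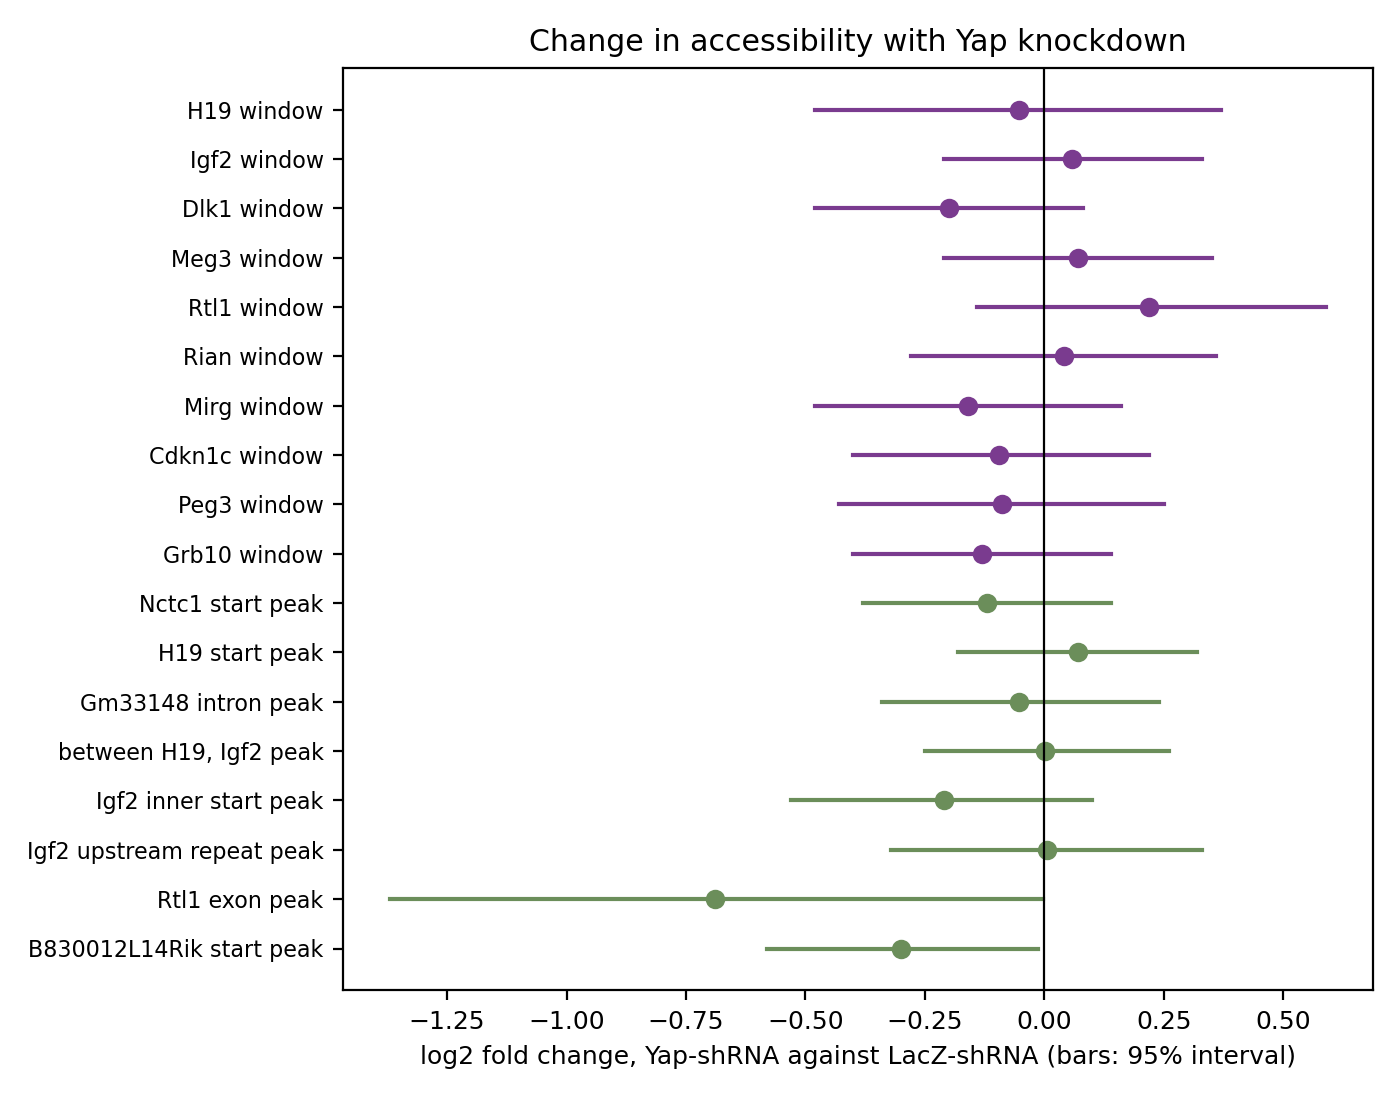
Log2 fold changes of Yap-shRNA against LacZ-shRNA with 95% intervals for the 10 windows (purple) and the 8 peaks (green). The intervals include 0 except at the 2 lowest peaks, Rtl1 exon (-1.37 to -0.002) and B830012L14Rik start (-0.58 to -0.013), neither of which passed the adjusted threshold.

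Peaks at the 3 members outside both regions add a wider view of those genes. The peak over the Peg3 start, chr7:6727174-6730758, also covers Usp29, which is transcribed the other way. It was the largest of them, with 150.0, 133 and 168 CPM in the LacZ-shRNA and 153, 131 and 127 CPM in the Yap-shRNA libraries (log2 fold change -0.14, adjusted p 0.856). The Cdkn1c start peak, chr7:143460267-143461781, read 34.2, 37.4 and 41.8 CPM against 33.1, 39.9 and 33.2 CPM. Both overlapped between groups.

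Grb10 held 7 peaks, 2 of them in its window. A pair of neighbouring intron peaks was lower in all 3 Yap-shRNA libraries. At chr11:11964452-11965298 the values were 20.5, 19.1 and 18.0 CPM and then 13.7, 15.6 and 14.4 CPM, a log2 fold change of -0.39 (SE 0.17, unadjusted p 0.0273, edgeR adjusted p 0.458). At chr11:11965421-11966675 they were 40.8, 56.9 and 44.5 CPM and then 38.7, 36.3 and 39.4 CPM, a log2 fold change of -0.29 (SE 0.13, unadjusted p 0.0321, adjusted p 0.488). Neither passed the threshold. Of the 9 peaks at these 3 members, only this pair had an unadjusted p under 0.05 with Yap-shRNA lower, where 5.31% of all peaks did. Groups stood apart with Yap-shRNA lower at 6.76% of all peaks. The 2 peaks lie side by side and do not count as separate results, and their values under the alternative fits are not given here.

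Other imprinted genes were taken from a list of 58, with the same fit. The list was not limited to other domains, and it includes Usp29, which the Peg3 start peak also covers. All had a window, and none passed the threshold in either direction, beside 0.0223% of all windows. A peak lay in 29 of these windows, beside 26.3% of all windows and 51.8% of those of protein-coding genes. Groups did not overlap at 4 of the 58, 2 higher and 2 lower with Yap-shRNA, beside 10.1% of all windows. Their median log2 fold change was 0.011. The 1 gene at an unadjusted p under 0.05, beside 4.90% of all windows, was Calcr, the calcitonin receptor, also a satellite cell marker. It held 24.1 CPM with LacZ-shRNA and 18.8 with Yap-shRNA. Magel2 (-0.38, unadjusted p 0.0543) and Nap1l5 (0.89, 0.0753) followed, and the most counts lay at Gnas, Osbpl5 and Inpp5f, whose log2 fold changes were -0.068, -0.093 and 0.046.

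The signalling partners of Igf2 were taken from a list of 15 ligands, receptors, adaptors and binding proteins. None passed the threshold or reached an unadjusted p under 0.05, beside 0.0223% and 4.90% of all windows. The receptor Igf1r differed by -0.025 (95% interval -0.29 to 0.24) and Insr, the insulin receptor, by 0.013. The adaptor Irs1 had the lowest p of the list (log2 fold change -0.22, unadjusted p 0.129), followed by the RNA-binding proteins Igf2bp1 (0.18) and Igf2bp3 (-0.15), and Igf2bp2 differed by 0.037.

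Of 9 regulators of imprints, none passed or reached an unadjusted p under 0.05, beside 0.0223% and 4.90% of all windows. Dnmt1, the methyltransferase that copies methylation at replication, read 61.9, 64.1 and 67.6 CPM with LacZ-shRNA and 73.1, 71.7 and 77.8 CPM with Yap-shRNA. These groups did not overlap, and the log2 fold change was 0.20 (95% interval -0.065 to 0.46, unadjusted p 0.136). Dnmt1 was the only 1 of the 9 with groups apart, beside 10.1% of all windows in either direction and 5.31% with Yap-shRNA higher. Uhrf1, its partner, differed by 0.12, the histone methyltransferase Setdb1 by 0.13, the de novo methyltransferase Dnmt3a by -0.003, the chromatin protein Smchd1 by 0.041 and Trim28, the corepressor that ZFP57 recruits, by 0.024.

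Among the neighbours, 5 further windows inside the H19-Igf2 region and 41 inside the Dlk1-Meg3 region were tested. None passed, beside 0.0223% of all windows. Igf2os, on the strand opposite to Igf2, read 13.9, 24.0 and 16.7 CPM against 14.1, 12.8 and 14.4 CPM (log2 fold change -0.36, unadjusted p 0.0503). Nctc1 differed by -0.18, Mir483 by 0.19 and Gm33148 by 0.029. On chromosome 12, 7 of the 41 windows did not overlap between groups, 4 higher and 3 lower with Yap-shRNA, beside 10.1% of all windows in either direction and 5.31% with Yap-shRNA higher. Mir329 was the one of the 41 at an unadjusted p under 0.05, beside 4.90% of all windows. Mir329 rests on 507 unshared bases and on 13 to 32 counts per library (log2 fold change -0.82, unadjusted p 0.0172). Mir3070b (0.70) and B830012L14Rik (-0.28) had the next lowest p, and Gm34081 (-0.17) and Mir493 (0.14) were also among the most counted. Of the muscle and other genes beside H19, Tnnt3, Tnni2, Lsp1 and Mrpl23 differed by -0.02, -0.16, 0.095 and 0.14.

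Beyond the region bounds, the nearest peaks on chromosome 7 lay 4819 bases before the region, at the Mrpl23 start, and 20357 bases after it. Both were higher in all Yap-shRNA libraries without passing the threshold (log2 fold changes 0.20 and 0.39). Groups did not overlap at 13.3% of all peaks in either direction. On chromosome 12 the peaks 2982 bases before and 3840 bases after the region differed by -0.14 and 0.081, with overlapping groups.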

How the data were processed

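ATAC-seq counts of 6 libraries, 3 per group, were analysed in R 4.3.3 and Python 3.11.15. Per the submitters' processing notes, BWA 0.7.17, SAMtools 1.8, MACS 1.4.2-1 and featureCounts 1.5.0 were used with GRCm38, and the authors merged peaks found in at least 2 samples. The deposited values are whole-number counts, not normalized, filtered to a mean of at least 10 per row. Transposase offsets cannot be examined in count tables. Windows and starts were annotated from GENCODE M21. Both tables were fitted whole with edgeR 4.0.16 (TMM factors, quasi-likelihood test, no covariate, Benjamini-Hochberg adjustment over all rows). Standard errors were derived from the test, as the absolute log2 fold change divided by the square root of its F statistic. The 95% intervals used these standard errors. The tests were also run on simulated data with known changes, and the outcome is not given here. Alternatives used limma 3.58.1 voom, DESeq2 1.42.0, other scaling and filters, a replicate block and each library left out.

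The members, gene lists, regions and tests were chosen with earlier results of these data known. In the domains all peaks were named. In each list the genes past the threshold, or else those with the 3 smallest p-values and the 3 highest mean CPM, were named. Same-numbered libraries did not deviate together, so the numbers were not taken as pairs. Separate animals per replicate are described, but which muscles were pooled is not labelled. Total counts per library limit precision, and intervals cover the spread between these samples only.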

Additional observations from a re-analysis of the deposited data

How the results depend on the processing

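None of the 10 member windows, the 8 region peaks or the 58 other imprinted gene windows that were fitted passed the threshold under any of the 14 alternatives. At a mean count of at least 50, only 52 of the 58 were fitted, and the Rtl1 exon peak was not. DESeq2 gave no adjusted p to 38284 windows, H19, Rtl1, Mirg and Peg3 among them, nor to 12597 peaks, the Rtl1 exon peak among them. The share of all windows called, 0.0223%, became 0.0668% with the likelihood-ratio test and with the abundance offset, 0.0405% with DESeq2 and 0.0466% with limma voom. With a replicate left out it was 0.318% without LacZ-shRNA replicate 1, 0.0101% without Yap-shRNA replicate 1 and 0.0081% without Yap-shRNA replicate 2. The share of peaks, 0.618%, became 1.05%, 0.399% and 0.327% with the likelihood-ratio test, the abundance offset and DESeq2. It was 0.366% without LacZ-shRNA replicate 2, 1.24% without LacZ-shRNA replicate 3 and 0.26% without Yap-shRNA replicate 1 and, separately, replicate 2. The cause was not tested. Same-numbered samples did not correlate (windows 0.191, -0.121 and 0.0923, peaks 0.0155, -0.0931 and -0.139), and with the replicate block 0.0263% of windows (13) and 0.573% of peaks (207) were called.

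The sign turned in 8 of 140 window values and 15 of 111 peak values. Library size alone turned H19 to 0.01, the Nctc1 peak to 0.02 and the Gm33148 peak to 0.093, and the abundance offset turned the last to 0.1. The peak between H19 and Igf2 turned to -0.006 with DESeq2, -0.001 with median-of-ratios factors and -0.015 with the replicate block, and the Igf2 upstream repeat peak to -0.011 with DESeq2, -0.015 with the abundance offset and -0.016 with the replicate block. With a replicate left out, values ranged from -0.26 to 0.077 for H19, -0.017 to 0.1 for Igf2, -0.062 to 0.22 for Rian, -0.2 to 0.072 for Cdkn1c, -0.065 to 0.096 for the peak between H19 and Igf2 and -0.17 to 0.12 for the repeat peak. The Rtl1 exon peak stayed between -0.95 and -0.42 in 13 alternatives (adjusted p at least 0.302 where given) and the B830012L14Rik peak between -0.38 and -0.16 in 14 (at least 0.288).

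The level order moved at 10 of 10 ranks as CPM per window, at 7 per kb of unshared window, a length chosen after seeing the data, and at 0 to 2 with a LacZ-shRNA replicate left out. In the central 300 bases, strings were present in 12.2% of all peaks and 1 of the 8 for CTCF, 11.5% and 0 for ZFP57, 2.17% and 0 for TEAD, 17.3% and 1 for E-box and 3.76% and 0 for MEF2. Depth limits features such as the Rtl1 exon peak, with 14 to 37 counts per library.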
